A study of Mus musculus with 12 samples.

Results

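The genes described here are 10 markers and regulators of epithelial and mesenchymal cell state, chosen by symbol from the 23479 symbols of a raw read count table: the epithelial genes Cdh1 and Epcam, the mesenchymal genes Cdh2, Vim and Fn1, and the transcription factors Zeb1, Zeb2, Snai1, Snai2 and Twist1. All 10 were in the table and all 10 passed the filter on low counts, which kept 15082 symbols. RNA was measured in bulk in 12 mouse prostate tumours, grown in C57BL/6J mice from 100000 PTE-82 cells placed in the prostate. PTE-82 is a mouse prostate cancer line that, per the labels, expresses TMPRSS2-ERG, a fusion of an androgen-regulated gene with an ETS factor gene. The 4 groups of 3 tumours received an antibody against CSF1, the growth factor of macrophages, on days 9 and 14 (anti-CSF1), 0.6 mg of Lupron on day 4 (Lupron), both agents (Lupron + anti-CSF1), or control IgG. Lupron is a GnRH agonist whose sustained action on the pituitary lowers testosterone. All tumours came from this 1 implanted line, were taken on day 17 after perfusion, and hold RNA of the host's prostate, stroma and immune cells beside that of the implanted cells. The labels do not say whether the Lupron tumours also had IgG.

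Epithelial cells are held together by E-cadherin, the product of Cdh1, and carry the adhesion molecule encoded by Epcam. In the epithelial to mesenchymal transition, which carcinoma cells can undergo in part or in full, zinc finger factors of the Snail and Zeb families and the helix-loop-helix factor Twist1 repress such genes, and cells gain vimentin (Vim), fibronectin (Fn1) and N-cadherin (Cdh2). Fibroblasts, smooth muscle, endothelium and macrophages of a tumour's stroma also express several of the mesenchymal genes, and Zeb2 has a known role in mouse macrophages.

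Snail and Zeb factors bind E-boxes of the form CACCTG, or CAGGTG on the other strand. The RefSeq promoter table (build GRCm38.p6, 250 bases before to 50 after each start) held 5 of the 10 genes: Epcam, Vim, Zeb2, Snai1 and Twist1, with 8 promoters between them. The sequences below are shown because they hold these letters, in capitals. Epcam (chr17:87635729-87636028, plus strand) has a pair, with first bases 187 and 19 bases upstream of the start. Snai1 (chr2:167537945-167538244, plus strand) has 1, at 126 bases upstream.
Epcam: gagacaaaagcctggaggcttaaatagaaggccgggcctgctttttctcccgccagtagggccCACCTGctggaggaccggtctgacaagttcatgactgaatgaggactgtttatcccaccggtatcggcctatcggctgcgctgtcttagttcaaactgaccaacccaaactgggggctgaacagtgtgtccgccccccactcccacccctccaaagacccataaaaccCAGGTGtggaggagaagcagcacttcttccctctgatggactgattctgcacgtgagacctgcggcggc
Snai1: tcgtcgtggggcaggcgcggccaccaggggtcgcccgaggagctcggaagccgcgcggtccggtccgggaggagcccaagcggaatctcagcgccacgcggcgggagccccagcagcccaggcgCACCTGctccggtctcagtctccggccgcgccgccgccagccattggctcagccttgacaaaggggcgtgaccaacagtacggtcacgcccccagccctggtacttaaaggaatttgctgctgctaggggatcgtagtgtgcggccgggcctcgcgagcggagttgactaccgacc
The 300-base windows of Vim, Zeb2 and Twist1 held neither form, which says only that these letters are not in those windows. Across 32851 promoters of the table, 20.2% held at least 1 and 2.88% at least 2. A match is a description of the letters and not a measured binding site.

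Total counts per library lay between 20584363 and 29965355. Levels are CPM, a gene's count relative to the library total after TMM scaling, and serve to compare tumours for 1 gene, not genes with each other. Libraries were not alike in normal tissue genes. Mean levels of lists for fat, both muscle types, basal and luminal epithelium and prostate secretion were each highest in IgG replicate 3, and IgG replicate 2 was next for all of these but secretion. Proliferation genes had a mean log2(CPM + 1) of 2.64 in IgG replicate 3, against 6.02 to 6.86 in the other tumours, and Erg had 7.59 CPM there, against 10.7 to 22.4 CPM. As a check of the antibody labels, summed CPM of 18 macrophage genes was 619 to 947 with anti-CSF1, 3314 to 3745 with Lupron, 552 to 804 with Lupron + anti-CSF1 and 1262 to 3437 with IgG.

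Among the epithelial genes, Cdh1 and Epcam were highest in the IgG group, and within it in replicates 2 and 3. Values are given for replicates 1, 2 and 3 of each group. Cdh1 (mm10 chr8:106603351-106670246) had 54.4, 31.3 and 22.4 CPM with anti-CSF1, 12.9, 92.3 and 67.9 CPM with Lupron, 51.7, 39.3 and 61.0 CPM with Lupron + anti-CSF1, and 69.5, 162 and 516 CPM with IgG. IgG replicate 3 stood far above the other 11, and the lowest tumour, Lupron replicate 1, was in a group whose other tumours ranked 3 and 5 of 12. The group means were 36.0 ± 16.5, 57.7 ± 40.7, 50.7 ± 10.9 and 249 ± 236 CPM (SD, n = 3 each). In the order anti-CSF1, Lupron + anti-CSF1, Lupron, IgG, every pair of neighbours overlapped.

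Epcam (chr17:87635979-87651129) had 28.7, 28.5 and 8.46 CPM with anti-CSF1, 8.45, 57.2 and 44.6 CPM with Lupron, 27.7, 24.4 and 35.1 CPM with Lupron + anti-CSF1, and 39.3, 137 and 258 CPM with IgG. Its tumours followed Cdh1 closely: the 3 highest were IgG replicate 3, IgG replicate 2 and Lupron replicate 2 for both genes, and the lowest pair was Lupron replicate 1 and anti-CSF1 replicate 3 for both. The log2 ratio of Cdh1 to Epcam varied over the 12 tumours with an SD of 0.33, while the log2 level of Cdh1 itself varied with an SD of 1.38. Group means of Epcam were 21.9 ± 11.6 CPM with anti-CSF1 and 36.8 ± 25.3 CPM with Lupron. They were 29.1 ± 5.47 CPM with Lupron + anti-CSF1 and 145 ± 109.6 CPM with IgG, again with overlap between neighbours in rank.

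The mesenchymal genes Vim and Fn1 were lowest in the 3 tumours in which Cdh1 and Epcam were highest, while IgG replicate 1 ranked 3 for Vim and 2 for Fn1 beside 4 for Cdh1. Vim (chr2:13573927-13582826), the intermediate filament of mesenchymal cells, had 2592, 2446 and 3209 CPM with anti-CSF1, 2614, 1092 and 2185 CPM with Lupron, 2386, 2280.5 and 2402 CPM with Lupron + anti-CSF1, and 2605, 1945 and 199 CPM with IgG. Outside IgG replicate 3 the whole range was 1092 to 3209 CPM, so a single tumour set the low IgG mean of 1583 ± 1243 CPM, against 2749 ± 405 CPM with anti-CSF1. Fn1, a matrix glycoprotein, had 12515, 8529 and 18549 CPM with anti-CSF1, 9086, 3602 and 7652 CPM with Lupron, 10680.4, 8225 and 14425 CPM with Lupron + anti-CSF1, and 14574, 3684 and 558 CPM with IgG. The IgG group held both the second highest and the lowest tumour of the 12 for Fn1, and its SD (7358 CPM) exceeded its mean (6272 CPM). Cdh2 was close to the limit of detection, with 0 to 91 counts per library. It had 0.952, 1.18 and 0.462 CPM with anti-CSF1, 0.879, 0.287 and 0.243 CPM with Lupron, 1.72, 0 and 0.482 CPM with Lupron + anti-CSF1, and 3.35, 0.960 and 3.07 CPM with IgG. The count of 0 allows a level of up to 0.160 CPM (3 counts), a limit of counting error only.

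Of the transcription factors, Snai1 and Twist1 were spread over the tumours much as Vim was, and Zeb2 varied least over the 12 tumours. Snai1, a repressor of Cdh1, had 45.2, 49.4 and 61.6 CPM with anti-CSF1, 47.8, 17.3 and 37.9 CPM with Lupron, 42.5, 27.2 and 47.6 CPM with Lupron + anti-CSF1, and 39.2, 22.2 and 2.13 CPM with IgG. Twist1 had 38.1, 38.3 and 57.4 CPM with anti-CSF1, 36.7, 22.1 and 38.4 CPM with Lupron, 43.6, 46.6 and 41.4 CPM with Lupron + anti-CSF1, and 39.3, 28.1 and 3.75 CPM with IgG. For both factors the 3 lowest tumours were IgG replicate 3, Lupron replicate 2 and IgG replicate 2, and the highest was anti-CSF1 replicate 3. The SD of the log2 ratio over 12 tumours was 0.19 between Vim and Twist1 and 0.31 between Vim and Snai1.

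Zeb1 had 201, 222 and 282 CPM with anti-CSF1, 194, 161 and 190.3 CPM with Lupron, 221, 218 and 192 CPM with Lupron + anti-CSF1, and 210.3, 171 and 84.2 CPM with IgG. Zeb2 (chr2:44983632-45117395) had 179, 163 and 233 CPM with anti-CSF1, 192, 135 and 189 CPM with Lupron, 185, 151 and 166 CPM with Lupron + anti-CSF1, and 238, 194 and 151 CPM with IgG. Over the 12 tumours Zeb2 had the smallest SD of the 10, 0.24 on the log2 scale, with all groups overlapping. Over the 10 tumours without IgG replicates 2 and 3 its SD was 0.26, above those of Snai2 (0.18) and Zeb1 (0.21). No source used here gives the strand setting of the counts, and Zeb2 shares 3381 annotated bases with the antisense gene Zeb2os, so reads of that stretch cannot be told apart. Snai2 (chr16:14705852-14709385), the Snail family member also called Slug, had 6.05, 8.15 and 7.04 CPM with anti-CSF1, 6.49, 6.31 and 7.36 CPM with Lupron, 8.02, 6.02 and 6.68 CPM with Lupron + anti-CSF1, and 8.41, 18.6 and 17.4 CPM with IgG. All 3 IgG tumours lay above the other 9, but replicate 1 by little, and the means of the treated groups, 7.08 ± 1.05, 6.72 ± 0.563 and 6.91 ± 1.02 CPM, were within their spread of each other.

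**Figure D1:**
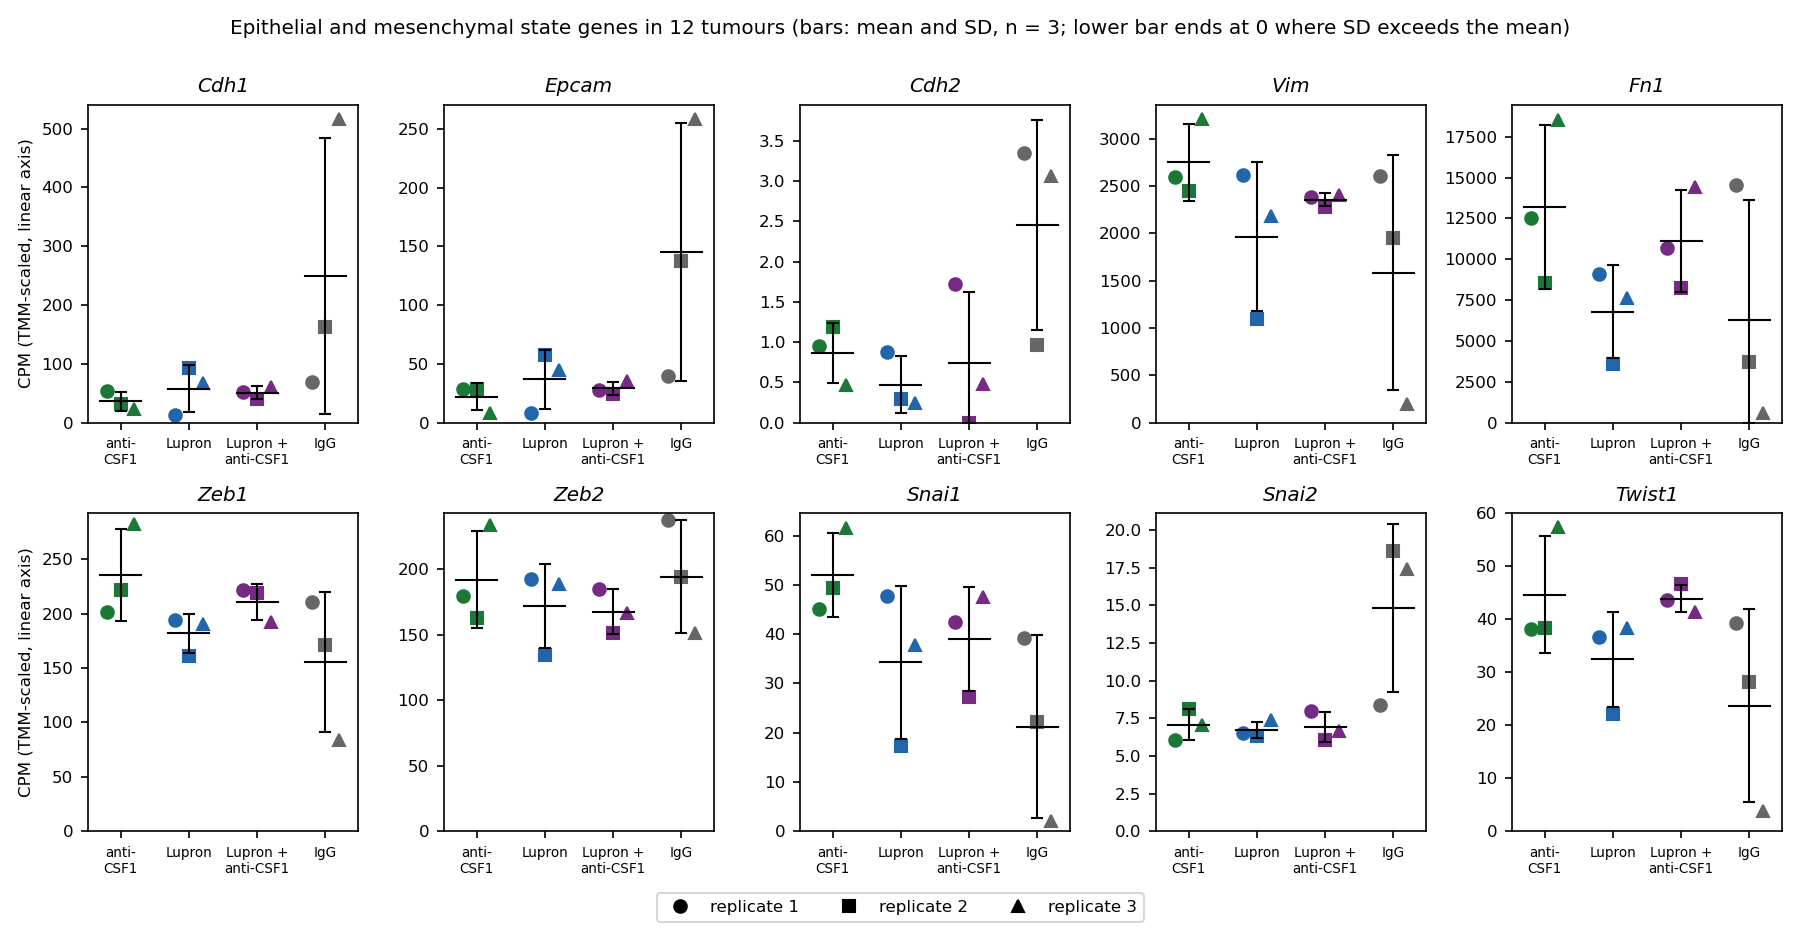
CPM (linear axis from 0) of each of the 10 genes in each tumour, by group, with horizontal lines for the mean and bars for the SD (n = 3 tumours). IgG replicate 3 is the highest point for Cdh1 (516 CPM) and Epcam (258 CPM) and the lowest for Vim (199 CPM), Fn1, Zeb1, Snai1 and Twist1.

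In the plot of levels by group, the IgG group has the largest SD for each of the 10 genes. The order of tumours was then set beside the levels of normal tissue genes. IgG replicate 3 was the highest tumour for 2 of the 10 genes (28.8% of all tested genes) and the lowest for 5 (31.8%), together 7 of 10, while it stood at an end for 60.6% of all tested genes. IgG replicate 3, then IgG replicate 2, then Lupron replicate 2 was the order from the top for Cdh1 and Epcam (2 of 10 genes, against 4.38% of all tested genes). IgG replicate 3, then Lupron replicate 2, then IgG replicate 2 was the order from the bottom for Vim, Fn1, Zeb1, Snai1 and Twist1 (5 of 10, against 3.79%). The same 5 genes had anti-CSF1 replicate 3 as their highest tumour together with IgG replicate 3 as their lowest, as did 4.63% of all tested genes. The orders that name Lupron replicate 2 or anti-CSF1 replicate 3 were taken from the levels of these same genes. Their shares beside those of all tested genes are therefore a description and not a test. The 10 genes are known to act together and are not independent of each other.

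Luminal epithelial genes, none of them among the 10, ran through the tumours in nearly the order of Cdh1. Their mean log2(CPM + 1) over 16 genes was 7.54 in IgG replicate 3 and 5.82 in IgG replicate 2, against 3.30 to 5.22 in the other 10 tumours. The 5 highest tumours, IgG replicates 3 and 2, Lupron replicate 2, IgG replicate 1 and Lupron replicate 3, came in the same order for Cdh1 and for the luminal list, and the lowest pair, Lupron replicate 1 and anti-CSF1 replicate 3, was the same. The luminal keratin gene Krt18 had 624 CPM in IgG replicate 3 and 147 CPM in IgG replicate 2, and 12 of the 16 luminal genes were highest in IgG replicate 3. Bulk RNA cannot tell apart fewer cells of a type from less RNA per cell, and the part of normal epithelium in the levels of Cdh1 and Epcam was not tested.

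**Figure D2:**
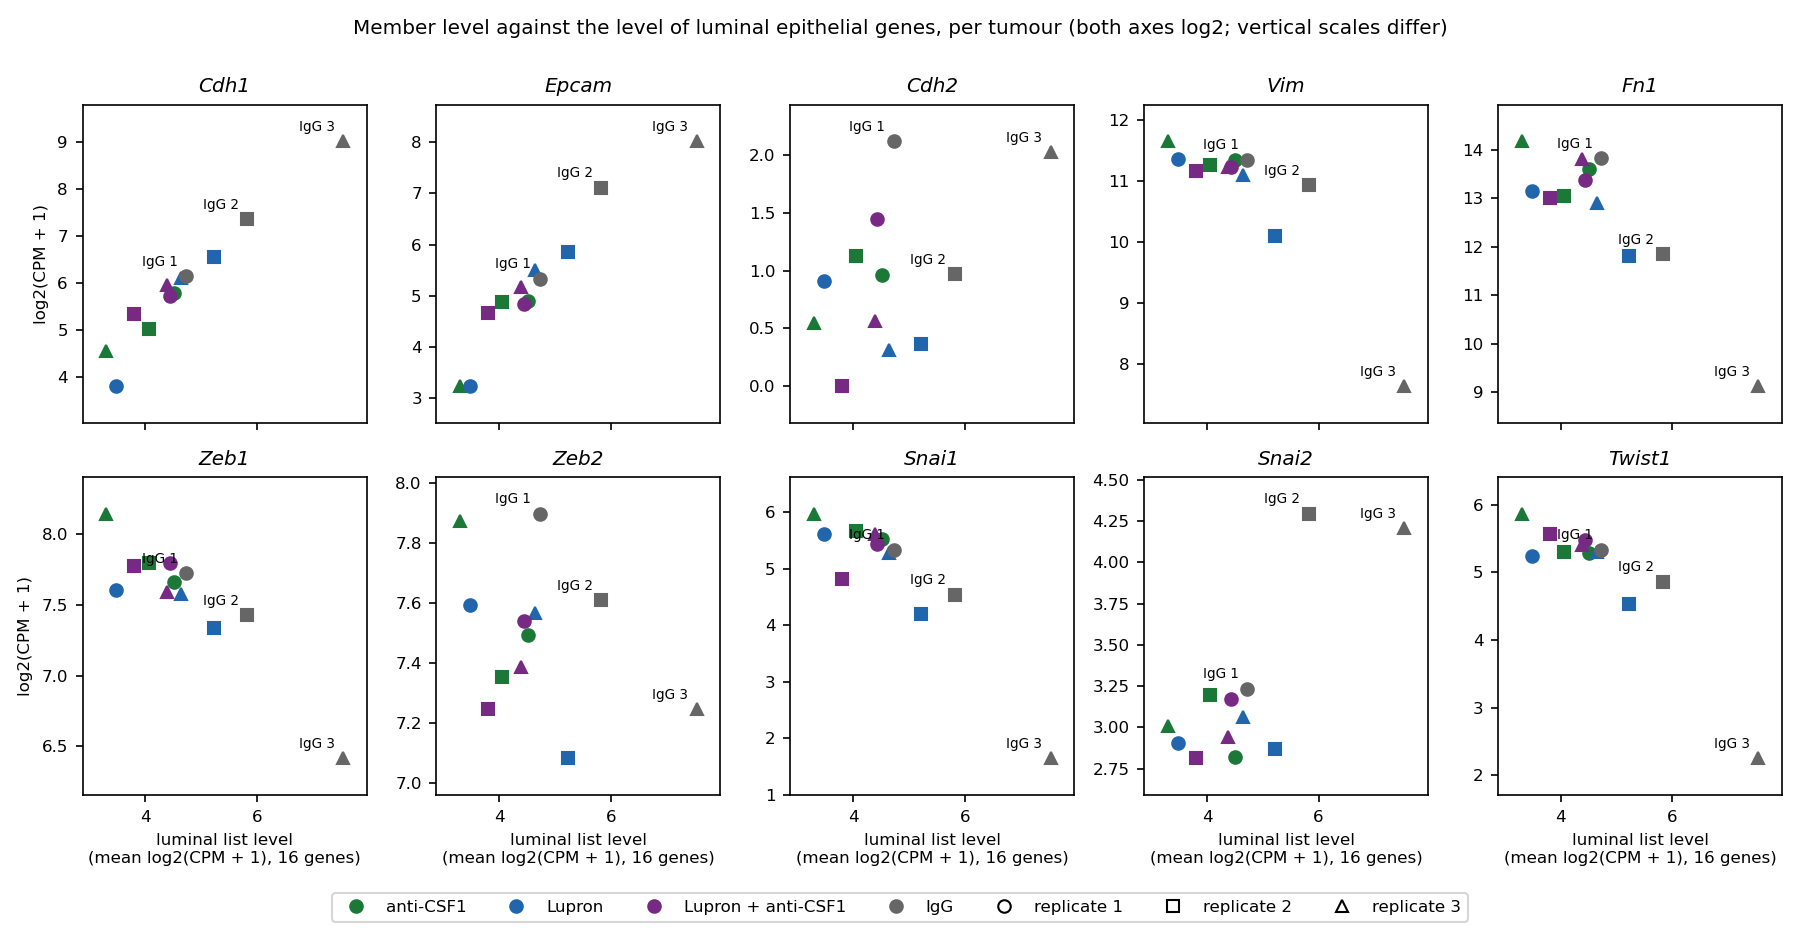
Level of each of the 10 genes, log2(CPM + 1), against the mean level of 16 luminal epithelial genes on the same scale, 1 point per tumour, with colours for the groups and the IgG tumours labelled. Cdh1 and Epcam run upwards to IgG replicate 3 at a luminal level of 7.54, Vim, Fn1, Snai1 and Twist1 drop there, and Snai2 stands apart in IgG replicates 2 and 3.

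In the plot against luminal genes, the points of Cdh1 and Epcam lie along 1 band that also holds the tumours outside the IgG group. Other normal tissue lists moved with the same tumours. Smooth muscle genes had a level of 9.12 in IgG replicate 3 and 7.19 in replicate 2, against 4.06 to 6.38 in the other 10, and fat genes had 6.54 and 3.79, against 0.458 to 3.32. The prostate secretory gene Sbp had 42812 CPM in IgG replicate 3 and at most 1.53 CPM elsewhere. Another gene of the secretion list, Pbsn, had 1458 CPM in IgG replicate 3, 10221 CPM in IgG replicate 2 and 9210 CPM in Lupron replicate 2. Of the 11 secretion genes, 6 were highest in IgG replicate 3 and 1 was lowest there. Seminal vesicle genes followed another order: they were highest in Lupron replicate 2 (13.3), with 11.0 in IgG replicate 2 and 4.52 in IgG replicate 3. Their part in the levels of the 10 genes was not tested.

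Relative to the median of the 10 tumours other than IgG replicates 2 and 3, Cdh1 was 9.73-fold higher in IgG replicate 3 and 3.06-fold higher in IgG replicate 2. For Epcam these values were 9.03-fold and 4.80-fold. On the mesenchymal side, IgG replicate 3 was 20.6-fold lower for Snai1, 17.7-fold lower for Fn1, 12.2-fold lower for Vim, 10.4-fold lower for Twist1 and 2.44-fold lower for Zeb1. Cdh2 went the other way, 4.51-fold higher in IgG replicate 3, at 91 counts. IgG replicate 2 was much nearer the median for Vim (1.25-fold lower) and Twist1 (1.38-fold lower) than for Fn1 (2.68-fold lower). Fibroblast genes, which overlap the mesenchymal genes in their known sources, had a level of 5.86 in IgG replicate 3 and 7.31 in IgG replicate 2, against 6.27 to 7.32 in the other 10 tumours. The list was split: of its 13 genes, 7 were lowest and 3 were highest in IgG replicate 3.

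Snai2 moved with the epithelial genes in IgG replicates 2 and 3 and not with the other transition factors. It was 2.54-fold above the median in IgG replicate 3 and 2.71-fold above it in IgG replicate 2. In Lupron replicate 2, the third tumour for Cdh1, Snai2 ranked 10 of 12 (6.31 CPM). The 2 highest tumours were IgG replicates 2 and 3 for Cdh1, Epcam and Snai2, 3 of 10 genes, against 13.9% of all tested genes. In the 10 other tumours Snai2 varied with an SD of only 0.18 on the log2 scale, against 0.57 over all 12.

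**Figure D3:**
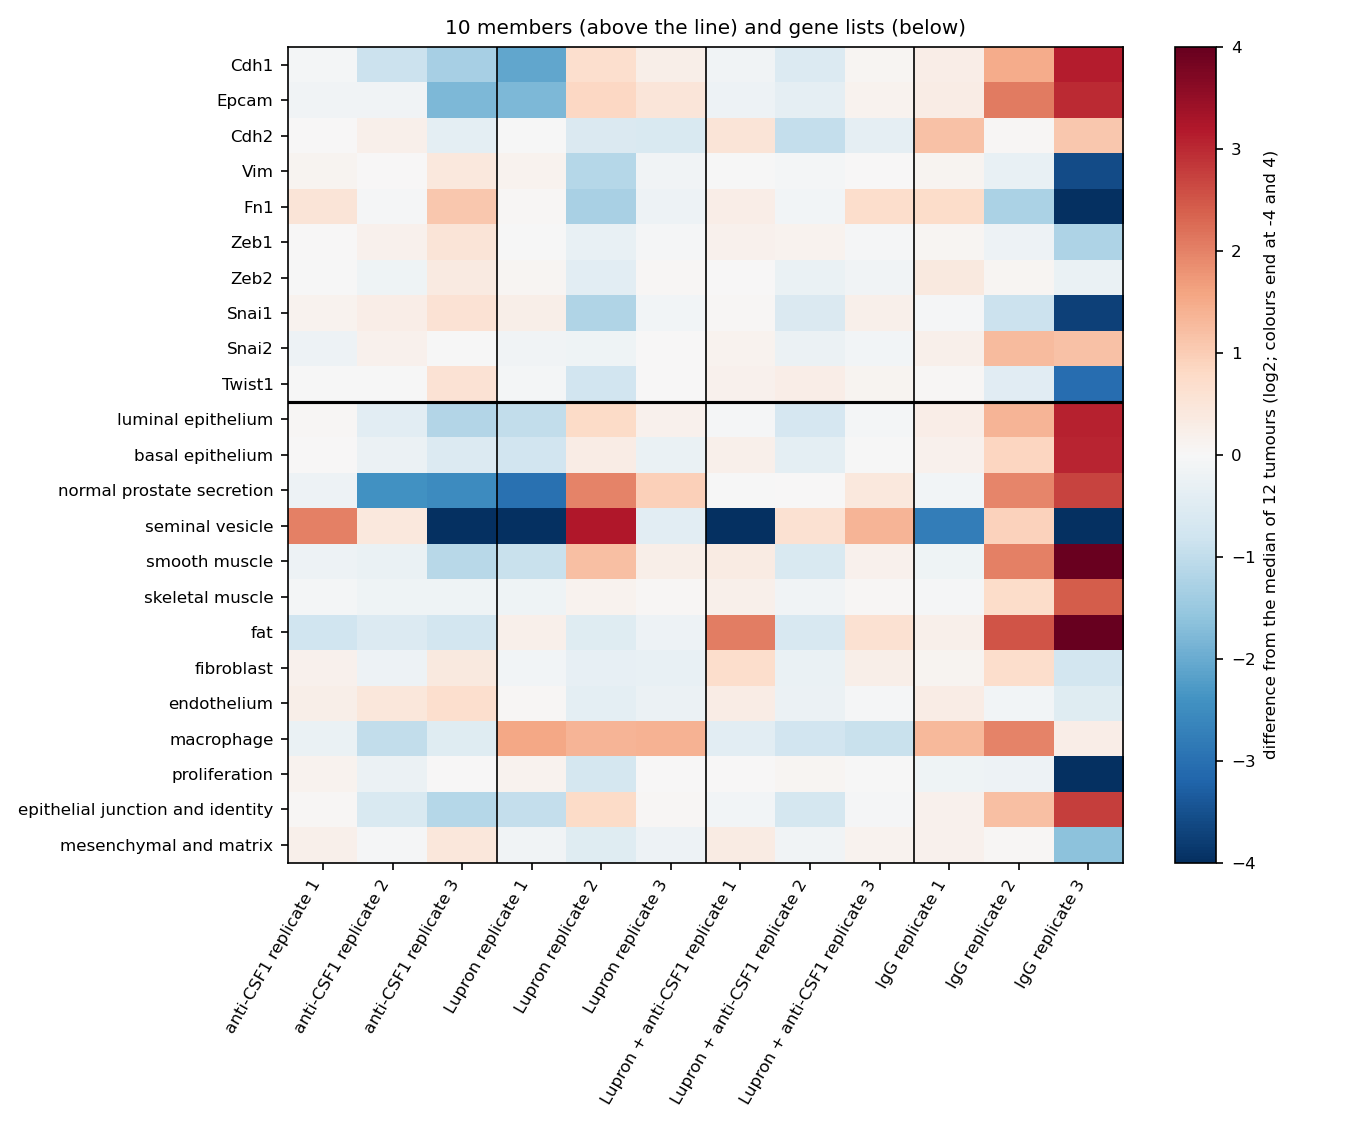
Difference of each tumour from the median of the 12 (log2 scale, colours end at -4 and 4) for the 10 genes above the line and for the mean levels of gene lists below it, with tumours in columns by group. The column of IgG replicate 3 is red for Cdh1, Epcam and the luminal, basal, smooth muscle and fat lists, and blue for Vim, Fn1, Snai1, Twist1 and proliferation.

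In the colour map, the rows of Cdh1 and Epcam and those of the luminal and junction lists were each highest in IgG replicate 3. The order of the rows is fixed and does not reflect likeness. An epithelial list of 40 other junction and identity genes had a level of 6.37 in IgG replicate 3 and 4.83 in IgG replicate 2, against 2.48 to 4.39 in the other 10, and 36 of the 40 were highest in IgG replicate 3. A list of 36 other mesenchymal and matrix genes had 6.23 and 7.95, against 7.39 to 8.33, and 26 of the 36 were lowest in IgG replicate 3. The 3 tested genes with the steadiest ratio to Cdh1, by the SD of the log2 ratio over 12 tumours among 12882 genes, were Bcl2l14 (0.29), Arhgef16 (0.30) and Plekhh1 (0.31). For Vim they were Nek2 (0.14), Cd44 (0.18) and Angptl2 (0.19), and for Zeb2 Nup153 (0.092), Srgap2 (0.11) and Nom1 (0.11).

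The comparison of anti-CSF1 with IgG asked what the antibody did without Lupron. Cdh1, Epcam and Snai2 had the smallest p-values, all with lower estimates under the antibody, and none passed the test. Cdh1 averaged 36.0 ± 16.5 CPM with anti-CSF1 and 249 ± 236 CPM with IgG, a log2 fold change of -2.84 ± 0.80 (SE; edgeR's quasi-likelihood test, Benjamini-Hochberg adjusted p = 0.0955). Epcam averaged 21.9 ± 11.6 CPM and 145 ± 109.6 CPM in the same groups, a log2 fold change of -2.77 ± 0.79 (adjusted p = 0.0969). Snai2 averaged 7.08 ± 1.05 CPM and 14.8 ± 5.58 CPM, a log2 fold change of -1.10 ± 0.31 (adjusted p = 0.0974). All 3 anti-CSF1 tumours lay below all 3 IgG tumours for these genes.

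For the mesenchymal side the same comparison gave estimates above 0 with wide errors. The log2 fold changes were 1.29 ± 0.72 for Snai1 (adjusted p = 0.295), 1.07 ± 0.84 for Fn1 (0.437), 0.91 ± 0.58 for Twist1 (0.352), 0.79 ± 0.66 for Vim (0.463) and 0.58 ± 0.28 for Zeb1 (0.238). Cdh2 had -1.54 ± 1.11 (adjusted p = 0.405). Zeb2 had -0.04 ± 0.23, with a 95% interval of -0.54 to 0.46. Of the 10 genes 0 passed edgeR's test, against 0.00663% of all genes tested, and 3 had an unadjusted p under 0.05, against 22.8%. Without overlap between the groups stood 4 of 10, Cdh1, Epcam and Snai2 lower and Snai1 higher with anti-CSF1, against 23.9% of all tested genes.

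The estimates of Cdh1, Epcam, Snai2, Vim, Fn1, Snai1 and Twist1 rested on IgG replicates 2 and 3. The fit without both left IgG replicate 1 alone, on the assumption that it varies like the other groups. There the log2 fold change was -0.96 ± 0.80 for Cdh1, -0.86 ± 0.87 for Epcam and -0.26 ± 0.33 for Snai2. It was 0.06 ± 0.46 for Vim, -0.16 ± 0.60 for Fn1, 0.39 ± 0.48 for Snai1 and 0.17 ± 0.34 for Twist1. Zeb2 was at -0.32 in that fit. Over 20 alternatives Cdh2 ran from -1.96 to -1.24 and Zeb1 from 0.15 to 0.86. Zeb1 also depended on the IgG tumours left out: it was 0.58 over 12 libraries, 0.30 without IgG replicate 3 and 0.86 without IgG replicate 1. Without IgG replicate 1, the IgG tumour with the lowest Cdh1, the fit called 4 of the 10, against 16.8% of all genes tested: Cdh1 (-3.30, adjusted p = 0.0190), Epcam (-3.23, 0.0187), Snai2 (-1.38, 0.0106) and Fn1 (2.64, 0.0430). DESeq2 on all 12 libraries called 3, Cdh1 (adjusted p = 0.00172), Epcam (0.00215) and Snai2 (0.0126), against 11.9% of the genes it tested. Over 20 alternatives the adjusted p ran from 0.00172 to 1 for Cdh1, from 0.00215 to 1 for Epcam, from 0.0106 to 1 for Snai2 and from 0.0430 to 1 for Fn1.

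**Figure D4:**
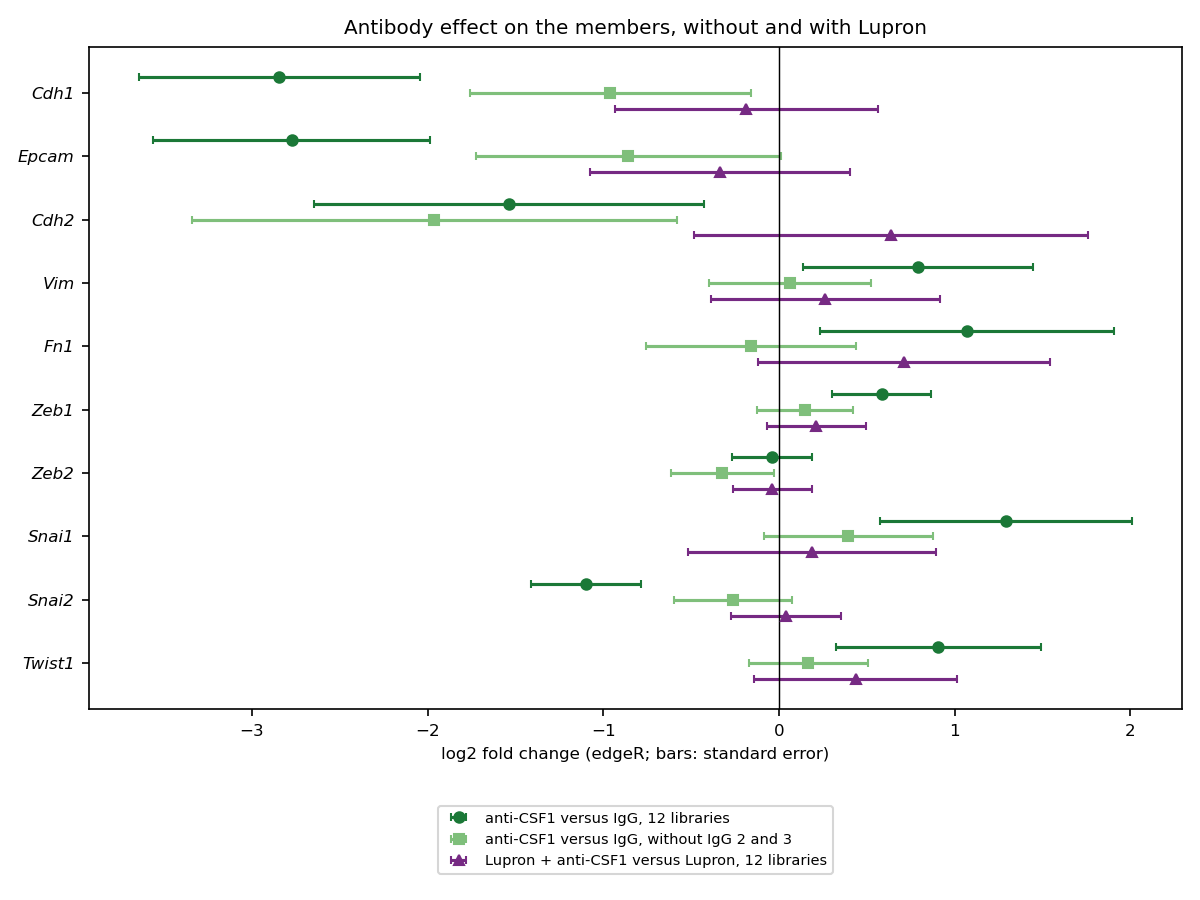
Log2 fold changes (edgeR, bars are standard errors) of the 10 genes for anti-CSF1 against IgG over 12 libraries, for the same without IgG replicates 2 and 3, and for Lupron + anti-CSF1 against Lupron. Cdh1 is at -2.84, -0.96 and -0.19 in these 3 fits, and Zeb2 is at -0.04, -0.32 and -0.04.

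Lupron against IgG asked what Lupron treatment did without the antibody. Cdh1 averaged 57.7 ± 40.7 CPM with Lupron and 249 ± 236 CPM with IgG, a log2 fold change of -2.16 ± 0.78, and Epcam had -2.03 ± 0.77 (adjusted p = 0.284 each by edgeR). Snai2 had -1.17 ± 0.31 (adjusted p = 0.284) and Cdh2 -2.40 ± 1.15 (adjusted p = 0.315). Of the 10 genes 0 passed edgeR, against 0% of all genes tested, 3 had an unadjusted p under 0.05, against 16.4%, and 2 did not overlap between groups, Snai2 and Cdh2, both lower with Lupron, against 19.5%. DESeq2 called 1, Snai2 (adjusted p = 0.0286), against 2.78% of the genes it tested, and so did edgeR without IgG replicate 1 (0.0318, against 4.19%). Its adjusted p ran from 0.0286 to 1 over 20 alternatives. Without IgG replicates 2 and 3 the log2 fold change was -0.29 ± 0.83 for Cdh1, -0.12 ± 0.90 for Epcam and -0.34 ± 0.33 for Snai2.

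Lupron + anti-CSF1 against IgG gave estimates near those of each agent alone, and all 3 comparisons share the same IgG tumours. Cdh1 averaged 50.7 ± 10.9 CPM with both agents and 249 ± 236 CPM with IgG, a log2 fold change of -2.35 ± 0.78 (edgeR adjusted p = 0.123). Epcam had -2.36 ± 0.77 (0.121), Snai2 -1.13 ± 0.31 (0.115) and Twist1 0.88 ± 0.58 (0.339). Of the 10 genes 0 passed edgeR, against 0.00663% of all genes tested, 3 had an unadjusted p under 0.05, against 26%, and 4 did not overlap between groups (Cdh1, Epcam and Snai2 lower, Twist1 higher), against 27.9%. DESeq2 called Cdh1, Epcam and Snai2, 3 of 10 against 13.1% of its genes, and edgeR without IgG replicate 1 called the same 3, against 14.2%. Over 20 alternatives the adjusted p ran from 0.0140 to 0.948 for Cdh1, from 0.0131 to 0.957 for Epcam and from 0.0124 to 0.898 for Snai2. The log2 fold change of Cdh1 was -1.19 ± 0.66 without IgG replicate 3. Without IgG replicates 2 and 3 it was -0.46 ± 0.82, with -0.44 ± 0.88 for Epcam and -0.29 ± 0.33 for Snai2.

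Adding the antibody to Lupron compared groups that hold no IgG tumour, and none of the 10 genes stood out there. Cdh1 averaged 50.7 ± 10.9 CPM with Lupron + anti-CSF1 and 57.7 ± 40.7 CPM with Lupron (log2 fold change -0.19 ± 0.75, 95% interval -1.83 to 1.46), and Epcam had -0.34 ± 0.74. The mesenchymal genes had 0.71 ± 0.83 for Fn1, 0.26 ± 0.65 for Vim and 0.64 ± 1.12 for Cdh2. Among the factors, Twist1 had 0.44 ± 0.58, Zeb1 0.21 ± 0.28, Snai1 0.19 ± 0.71, Snai2 0.04 ± 0.31 and Zeb2 -0.04 ± 0.23. Of the 10, 0 passed edgeR (0% of all genes tested), 0 had an unadjusted p under 0.05 (4.26% of all) and 0 passed DESeq2 (1.46% of its genes). Without Lupron replicate 2 the estimates of Cdh1 and Epcam changed sign, to 0.36 and 0.16. Twist1 alone did not overlap, with 41.4 to 46.6 CPM in the combination and 22.1 to 38.4 CPM with Lupron (1 of 10, against 12.8% of all tested genes). Lupron + anti-CSF1 against anti-CSF1 likewise had 0 of 10 by edgeR (0%), 0 by unadjusted p (1.95%) and 0 by DESeq2 (0.0314%), and Vim alone did not overlap, at 2280.5 to 2402 CPM with both agents and 2446 to 3209 CPM with anti-CSF1 (1 of 10, against 9.97%).

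Averaged over tumours with and without Lupron (6 tumours with the antibody and 6 without), Cdh1 was at 43.3 ± 14.9 CPM with the antibody and 153 ± 184 CPM without it. Its log2 fold change was -1.52 ± 0.54 (edgeR adjusted p = 0.179), that of Epcam -1.55 ± 0.53 (0.167) and that of Snai2 -0.53 ± 0.22 (0.229). The other estimates were 0.89 ± 0.59 for Fn1, 0.74 ± 0.50 for Snai1, 0.67 ± 0.41 for Twist1, 0.53 ± 0.46 for Vim, 0.40 ± 0.20 for Zeb1 and -0.45 ± 0.79 for Cdh2. Of the 10 genes 0 passed, against 1.87% of all genes tested, 3 had an unadjusted p under 0.05, against 19%, and 0 stood without overlap, against 2.35%. DESeq2 called Cdh1 (adjusted p = 0.0307) and Epcam (0.0244), against 9.33% of its genes, and edgeR without IgG replicate 1 called these and Snai2 (0.0369), against 10.1%. The adjusted p over 19 alternatives ran from 0.0307 to 0.919 for Cdh1, from 0.0244 to 0.916 for Epcam and from 0.0369 to 0.960 for Snai2. Without IgG replicates 2 and 3, Cdh1 had -0.57 ± 0.50 and Epcam -0.59 ± 0.54.

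Zeb2 had an averaged antibody effect of -0.04 ± 0.16 (95% interval -0.39 to 0.31), at 179.6 ± 29.0 CPM with the antibody and 183 ± 36.3 CPM without it. Of 18 macrophage genes, 16 passed the same test, all lower with the antibody, with a median log2 fold change of -2.29 over the 18, against 0.02 over all genes. The part of macrophages in the level of Zeb2 was not tested.

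For Lupron averaged over antibody, 0 of the 10 genes passed edgeR (0% of all genes tested), 1, Snai2, had an unadjusted p under 0.05 (9.06% of all), 0 passed DESeq2 (0.0576% of its genes) and 0 stood without overlap (0.418%). The interaction, which asks whether the antibody's effect differed with Lupron present, had its smallest p-values for Cdh1 (2.66 ± 1.07, edgeR adjusted p = 0.676), Epcam (2.44 ± 1.06, 0.717) and Snai2 (1.14 ± 0.44, 0.661). Of the 10, 0 passed edgeR (0% of all genes tested) and 0 passed DESeq2 (1.35% of its genes), and these 3 had an unadjusted p under 0.05 (6.77% of all). Over 19 alternatives the interaction estimate ran from 0.78 to 3.23 for Cdh1, 0.53 to 2.97 for Epcam and 0.24 to 1.43 for Snai2. Without IgG replicate 3 it was 1.50 for Cdh1 and 1.68 for Epcam, and without IgG replicate 2 it was 0.95 for Snai2.

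Other genes of the transition were taken from 4 lists written from general knowledge. In each of the 8 comparisons 0 genes of these lists passed edgeR. For the averaged antibody effect, an unadjusted p under 0.05 was found for 30 of 40 epithelial, 8 of 36 mesenchymal, 5 of 18 other factor and 9 of 25 signalling genes, against 19% of all genes tested. DESeq2 called 24 of 39, 4 of 36, 0 of 19 and 5 of 24 in the same lists, against 9.33% of its genes. For Lupron averaged over antibody the unadjusted counts were 4, 3, 0 and 2, against 9.06% of all genes, and DESeq2 called 0 of each list, against 0.0576%. Of the epithelial junction and identity genes, 35 of 40 had a negative averaged antibody estimate, with a median log2 fold change of -1.84 (-0.67 without IgG replicates 2 and 3), against 0.02 over all genes. The smallest p-values were those of Grhl1, a grainyhead factor of epithelia (-3.27 ± 0.79, adjusted p = 0.0671), the splicing regulator Esrp2 (-2.99 ± 0.72), the membrane protease gene St14 (-2.02 ± 0.50) and the junction molecule gene F11r (-1.23 ± 0.33). Grhl1 averaged 1.56 ± 1.47 CPM with anti-CSF1, 10.4 ± 8.04 CPM with Lupron, 4.04 ± 0.641 CPM with Lupron + anti-CSF1 and 55.5 ± 63.4 CPM with IgG, the same order of groups as Cdh1 and with the IgG SD above its mean.

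The median averaged antibody estimate was 0.59 over 36 mesenchymal and matrix genes, 26 of them positive, and 0.29 without IgG replicates 2 and 3. Those with the smallest p were the smooth muscle genes Acta2 (-1.38 ± 0.44) and Tagln (-2.15 ± 0.72), which are also on the smooth muscle list, the ectonucleotidase gene Nt5e (1.21 ± 0.44) and the cadherin gene Cdh11 (-1.19 ± 0.44), so 3 of these 4 went against the list's median. Over 18 other transition factors the median was 0.32 (0.13 over 19 without those tumours), and the genes with small p included Sox9 (0.59 ± 0.24), Tbx2 (-1.42 ± 0.63) and Id3 (0.50 ± 0.22). Over 25 signalling genes it was 0.36, with 20 positive, and 0.14 without those tumours. Tgfb2, a TGF-beta ligand that can drive the transition, averaged 116 ± 35.0 CPM with anti-CSF1, 62.1 ± 18.4 CPM with Lupron, 123 ± 24.5 CPM with Lupron + anti-CSF1 and 62.3 ± 22.9 CPM with IgG (0.94 ± 0.23, adjusted p = 0.0689). Bambi, a decoy receptor of that pathway, had 0.69 ± 0.17, Hif1a 1.03 ± 0.30 and Wnt5a 1.00 ± 0.32.

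For Lupron averaged over antibody all 40 epithelial genes had negative estimates, with a median of -0.70 that became 0.18 without IgG replicates 2 and 3. The genes with small p included the desmosome genes Pkp2 (-0.50 ± 0.17) and Evpl (-2.20 ± 0.91) and Ctnnd1, which encodes p120 catenin (-0.47 ± 0.19), each at an adjusted p of 0.525. The medians were -0.06 (-0.26 without IgG replicates 2 and 3) for mesenchymal genes, led by Dcn (-1.23 ± 0.43), Cdh11 (-1.04 ± 0.44), Acta2 (-1.02 ± 0.44) and Lum (-1.22 ± 0.56), and -0.16 (-0.31 without them) for other factors, led by Foxc1 (-0.64 ± 0.29), Gata6 (-0.52 ± 0.25), Id3 (0.43 ± 0.22) and Sox9 (-0.46 ± 0.24). For signalling genes it was 0.07, which turned to -0.16 without them, led by Bambi (0.73 ± 0.17), Tgfbr1 (0.40 ± 0.16), Src (-0.38 ± 0.22) and Smad4 (-0.17 ± 0.12), and the median over all genes was -0.02.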

How the data were processed

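RNA of 12 mouse tumours was sequenced from NuGen Ovation Mouse RNA-Seq libraries, per the labels. The submitters' processing notes name HTSeq 0.6.1, cutadapt 1.8.1, bcl2fastq 2.20.0.422 and build mm10, without their roles. No source used here gives the aligner, the annotation or the strand setting. The deposited table holds raw counts per gene symbol, with no normalization by the authors, and every column matched a sample label (0 unmapped).

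Counts were fitted in R 4.3.3 with edgeR 4.0.16: edgeR's filter on low counts, TMM factors, 1 mean per group over all 12 libraries, robust quasi-likelihood F tests, two-sided, with a threshold of 0.05 on Benjamini-Hochberg adjusted p over 15082 genes. The 8 comparisons were 5 between groups, 2 averaged effects and the interaction. CPM were computed here from the deposited counts. P-values measure only the spread between these tumours; the labels do not name the animal of each. The biological coefficient of variation was 0.471. DESeq2 1.42.0, RLE factors, other filters, fits to the compared groups, a replicate block and fits without single libraries were alternatives. The method was tested on simulated data with less spread than these tumours and no outlying tumour, which says nothing of its error rate here.

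List levels are means of log2(CPM + 1) over 19 lists (4 of the transition, 15 of cell types). Spink1 and Adgre1 were matched by older symbols, and Ly6g and Trac are not used here. Genes near a member are the 3 with the smallest SD of the log2 ratio (prior count 2, mean of at least 1 CPM) for Cdh1, Vim and Zeb2; up to 4 genes per transition list with the smallest p in each averaged effect were named, apart from items that are not reported here. Krt18, Erg, Sbp, Pbsn and Zeb2os fall outside these rules and were chosen after their values were seen. Gene positions are those of GENCODE M21 (GRCm38, which is mm10). The members, lists and rules were chosen with earlier results of these data known. No pair of libraries looked like a duplicate.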

Additional observations from a re-analysis of the deposited data

How the results depend on the processing

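All 12 libraries were deep enough for every gene here except Cdh2; 3 tumours per group limit the precision. Of 41 member fold changes under 20 settings, 766 values kept direction and side of the threshold, 20 passed it, 0 lost it and 21 changed sign. None could lose it, because the main fit called 0 members in every comparison. The 80 mean levels under other scaling moved by less than 1 SD, but on unscaled totals 3 members, Snai2 added, were highest in IgG replicate 3. For each result below, the cause was not tested beyond fewer samples.

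The edgeR fit of the report called 1 gene each for anti-CSF1 and the combination against IgG, 282 for the averaged antibody effect and 0 in the other 5 comparisons. DESeq2 called 1869 genes (3 members) for anti-CSF1 against IgG, 427 (1) for Lupron against IgG, 2011 (3) for the combination against IgG, 236 against Lupron, 6 against anti-CSF1, 1435 (2) for the averaged antibody effect, 11 for Lupron and 212 for the interaction. For anti-CSF1 against IgG, the combination against IgG and the combination against Lupron, edgeR called 2, 3 and 5 with RLE factors and also with at least 1 CPM in 3 libraries; 0, 0 and 204 with only the groups compared; 7, 26 and 214 without IgG replicates 2 and 3; and 0, 2 and 153 without these and Lupron replicate 2, a setting added after seeing the data. With no filter the last 2 were 3 and 2. Replicate numbers were not treated as pairs in the main fit. Of 18 same-numbered pairs, 8 correlated above 0.1 (range -0.30 to 0.51), and different-numbered pairs ran from -0.64 to 0.56. These ranges overlap, so they cannot decide whether the numbers pair the tumours. A replicate block gave 0, 0 and, for the averaged antibody effect, 151 calls, and 0 members.

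Leaving out single libraries gave 0 to 2611 genes (0 to 4 members) for anti-CSF1 against IgG, 0 to 653 (0 to 1) for Lupron against IgG, 0 to 2213 (0 to 3) for the combination against IgG, 0 to 210 against Lupron, 65 to 1577 (0 to 3) for the averaged antibody effect, 0 to 2 for Lupron and 0 to 5 for the interaction; the largest counts, and all member calls, came without IgG replicate 1, except 210 (without IgG replicate 3), and 65 came without anti-CSF1 replicate 3. Fn1 with anti-CSF1 against IgG changed sign without IgG replicates 2 and 3 (-0.16) and without these and Lupron replicate 2 (-0.14), and reached 2.64 without IgG replicate 1. Without IgG replicates 2 and 3 and Lupron replicate 2, the combination against Lupron gave 0.33 for Cdh1, 0.13 for Epcam, -0.028 for Vim, -0.13 for Snai1 and -0.0050 for Snai2. Over all settings that leave out libraries, that comparison ran from -0.65 to 0.36 for Cdh1, -0.80 to 0.16 for Epcam, -0.89 to 1.48 for Cdh2, -0.028 to 0.53 for Vim, -0.19 to 0.060 for Zeb2, -0.13 to 0.51 for Snai1 and -0.072 to 0.13 for Snai2. Zeb2 ran from -0.32 (-0.31 with Lupron replicate 2 also left out) to 0.12 with anti-CSF1 against IgG and from -0.25 to 0.045 in the averaged antibody effect.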
